A study of Rattus norvegicus with 10 samples.

Results

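The inositol polyphosphate 5-phosphatases were followed in rat lung messenger RNA. The 10 members were taken by symbol from the deposited gene table (Inpp5a, Inpp5b, Inpp5d, Inpp5e, Inpp5f, Inpp5k, Inppl1, Ocrl, Synj1 and Synj2), and all 10 were found among its 22250 genes and passed the filter on low counts. The family was chosen by the measured fall of Inpp5b between the groups, so that difference is given as a description. Per the study's text, rats received lipopolysaccharide (a product of bacteria that draws in neutrophils) and ovalbumin (an egg white protein used as allergen) as a model of neutrophilic asthma, and a formula called SP was given. The 10 lung libraries carry the names MOD 1 to 5 and XBS 1 to 5. Neither name is expanded in the labels or tied to SP, so XBS is compared with MOD without further reading. The labels give no strain, sex, age, dose or time of sampling, and do not say whether each of the 5 libraries of a group is a different animal. P-values therefore measure the spread between libraries, which may be technical.

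Phosphoinositides are membrane lipids whose inositol ring is marked with phosphates by kinases and unmarked by phosphatases. The 5-phosphatases remove the phosphate at position 5, either from these lipids or from soluble inositol phosphates released by phospholipase C. They thereby set the lipid identity of the plasma membrane and endosomes, limit signalling by PI 3-kinase to Akt, and end calcium signals. In lung they act in epithelial, endothelial and immune cells, and SHIP1 (Inpp5d) is best known for its restraint of leukocytes.

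Libraries held 11998979 to 15518929 counts, and levels are given as CPM, the usual unit of counts scaled to library size. The lung label was checked against marker lists. Alveolar type 2 markers summed to 15991 to 32698 CPM over the 10 libraries. Alveolar type 1 markers summed to 5358 to 6320.5 CPM in MOD and to 3399 to 5446 CPM in XBS, with 7 of 7 negative fold changes (median log2 -0.43). Endothelial markers summed to 2927 to 4345 CPM in MOD and to 2077 to 3178 CPM in XBS, with 6 of 6 tested genes negative (median log2 -0.36) and Cldn5 at 0 in all libraries. By edgeR 0 genes of either list passed. In each list 4 genes had an unadjusted p under 0.05, all lower in XBS. Of all tested genes 13.2% had such a p, and 828 of 14320 had it in the lower direction. The part of both lists in the results on the members was not tested. The labels also name a human bronchial cell line, while the table holds rat genes. Markers of ciliated and club cells of the airway were scored on the log2 scale around each gene's mean. The mean of both scores stood at -1.91 in XBS 2 and -1.75 in XBS 3, against -0.29 to 1.04 in the other 8 libraries. Results on Inpp5b are therefore also given without these 2 libraries.

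Upstream sequence is shown first, for the gene that chose the family, for the leukocyte member and for Cdkn1a, whose levels followed those of Inpp5b most closely. RefSeq's promoter table (build GRCr8) matched 9 of the 10 members by symbol, and the 250 bases before the annotated start are printed 5′ to 3′ on the gene's strand. They lie at chr5:142281204-142281453 for Inpp5b, chr9:95735283-95735532 for Inpp5d and chr20:7150682-7150931 for Cdkn1a, each on the plus strand. Capitals mark matches, on either strand, to 6 motifs chosen after the values were seen. They are the E-box CACGTG, a nuclear receptor half-site in the forms AGGTCA and, with another first base, GGGTCA, the CCAAT box, the GC box GGGCGG and the CACCC box.
Inpp5b: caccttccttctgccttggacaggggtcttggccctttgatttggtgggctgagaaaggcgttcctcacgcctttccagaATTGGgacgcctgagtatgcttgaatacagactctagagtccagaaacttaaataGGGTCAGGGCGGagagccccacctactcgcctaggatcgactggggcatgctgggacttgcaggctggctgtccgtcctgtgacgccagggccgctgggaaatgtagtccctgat
Inpp5d: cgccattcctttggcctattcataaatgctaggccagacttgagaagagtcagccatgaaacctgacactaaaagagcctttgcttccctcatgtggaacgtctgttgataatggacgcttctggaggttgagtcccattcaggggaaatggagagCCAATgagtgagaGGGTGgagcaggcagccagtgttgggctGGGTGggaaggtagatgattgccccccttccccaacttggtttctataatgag
Cdkn1a: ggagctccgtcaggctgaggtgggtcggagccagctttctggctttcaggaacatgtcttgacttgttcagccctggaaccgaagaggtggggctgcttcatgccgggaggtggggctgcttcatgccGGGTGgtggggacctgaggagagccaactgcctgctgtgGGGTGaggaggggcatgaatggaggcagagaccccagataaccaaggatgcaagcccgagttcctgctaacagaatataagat

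The window of Inpp5b held 1 GGGTCA, starting 115 bases before the start, directly followed by 1 GGGCGG at 109 bases, and 1 CCAAT on the opposite strand at 170 bases. GGGTCA was also in the windows of Inpp5a and Inpp5e, and AGGTCA in that of Inppl1, members that did not pass the test. In RefSeq windows of the same length, GGGTCA was present in 11.9%, AGGTCA in 14.1%, GGGCGG in 30.5%, CCAAT in 34% and CACCC in 49.2% of 33469. CACGTG, the E-box of clock activators, was present in 5.59% of all windows and in none of the windows of the 9 matched members. Inpp5b had 9 CpG pairs in its window and Inpp5d 3, against a median of 5 over all windows. Windows of the other matched members held 13 to 33. A match describes these letters only, and no binding was measured.

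Inpp5b and Ocrl are the closest paralogues of the family, a pair of lipid phosphatases of endosomes and the Golgi that bind Rab proteins. OCRL is the gene product lost in Lowe syndrome. Inpp5b was lower in XBS, whereas Ocrl was nearly level. Inpp5b stood at 11.4, 11.6, 16.6, 19.3 and 17.9 CPM in MOD 1 to 5 and at 5.26, 4.29, 4.98, 6.52 and 7.60 CPM in XBS 1 to 5. All 5 XBS libraries lay below the lowest MOD library, with 58 to 291 counts behind each value. The mean level was 15.4 ± 3.67 CPM for MOD and 5.73 ± 1.32 CPM for XBS (SD, n = 5). This is a log2 fold change of -1.42 ± 0.21 (SE), or 2.68-fold. This difference (adjusted p = 0.0412 by edgeR over 14320 genes) chose the family and supports nothing here. It passed without MOD 1 or without XBS 5, and did not pass without any other single library (edgeR adjusted p = 0.0588 to 0.126, log2 fold change -1.51 to -1.33). Only 0.0768% of all tested genes passed this threshold, and 0.0489% passed as lower in XBS; of the 10 members, 0 rose, 1 fell and 9 did not pass. Groups did not overlap for Inpp5b alone among the members, against 2.74% of all tested genes, or 1.13% in the lower direction.

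**Figure D1:**
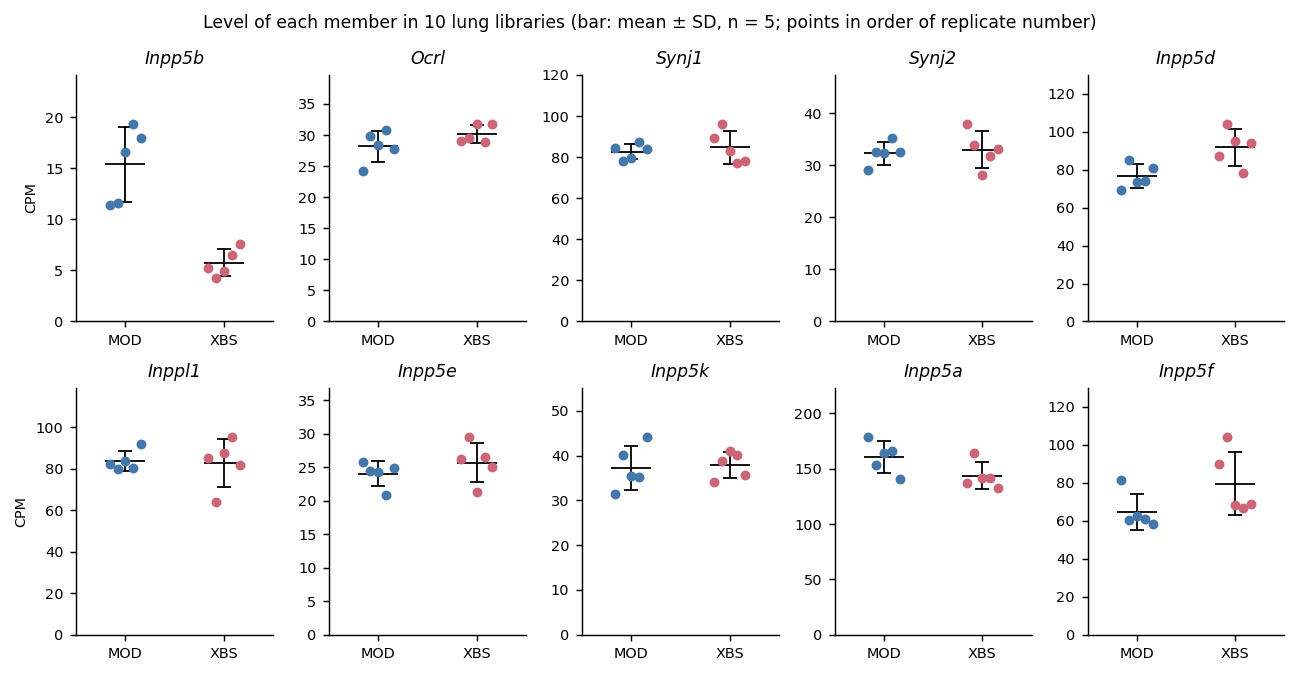
CPM of each member in the 5 MOD and 5 XBS libraries, with points for libraries and bars for mean ± SD, each axis starting at 0. Inpp5b separates the groups, at 11.4 CPM or more in MOD and 7.60 CPM or less in XBS, and the other 9 members overlap.

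Inpp5b was compared within each group with the airway score, the mean of the ciliated and club cell scores. In XBS its order was that of the airway score, from XBS 2 (4.29 CPM, score -1.91) through XBS 3 and XBS 1 to XBS 4 (6.52 CPM, score 0.85) and XBS 5 (7.60 CPM, score 1.04). In MOD the 3 libraries with the highest scores, MOD 3, MOD 4 and MOD 5 (0.47 to 0.72), were also the 3 with the most Inpp5b. The full order in MOD was not that of the score. MOD 2 (score -0.13) had 11.6 CPM against 11.4 CPM in MOD 1 (score 0.35). MOD 5 (score 0.72) had 17.9 CPM against 19.3 CPM in MOD 4 (score 0.65). With the airway score as a covariate the log2 fold change of Inpp5b was -1.22 ± 0.18 (SE), and the call was kept (edgeR adjusted p = 0.0471). Without XBS 2 and XBS 3 the log2 fold change was -1.25 ± 0.23 (SE), and the call was lost. Both fits describe the difference that chose the family and are no test of it. Summed ciliated cell markers (11 of 12 matched, none at 0) ran from 732 to 892 CPM in MOD and from 386 to 1090.1 CPM in XBS. Summed club cell markers (7 of 7 matched, none at 0) ran from 7876 to 12010 CPM in MOD and from 2269 to 8765 CPM in XBS. Inpp5b followed these sums less closely than the score. MOD 5, with the highest score of MOD, had the lowest club cell sum of MOD (7876 CPM). XBS 4 exceeded XBS 5 in the ciliated sum (1090.1 against 942 CPM) and the club cell sum (8765 against 8328 CPM), though XBS 5 had more Inpp5b. Of 5 tested club cell markers 1 fell, Cyp4b1 (1.58-fold, adjusted p = 0.0104 by edgeR), named after its value was seen. Of all tested genes 0.0489% passed as lower in XBS. The part of the airway markers in the lower Inpp5b was not tested beyond these values. In these bulk libraries, fewer cells of a type and less RNA per cell cannot be told apart.

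Ocrl stood at 24.2, 29.8, 28.5, 30.8 and 27.8 CPM in MOD 1 to 5 and at 29.0, 29.5, 31.8, 28.9 and 31.8 CPM in XBS 1 to 5. The groups overlapped, and MOD 1 was the lowest library. The XBS over MOD ratio was 1.07, with a 95% confidence interval of 0.946 to 1.21 (edgeR adjusted p = 0.609). Per gene length, as FPKM, which scales counts to gene length and library total, Inpp5b reached 63.8% ± 12.9 (SD, n = 5) of the level of Ocrl in MOD and 22.3% ± 4.85 (SD, n = 5) in XBS. The percentages ran from 45.8% to 75.8% in MOD and from 17.1% to 28.1% in XBS. Because Inpp5b chose the family, this ratio is a description as well.

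**Figure D2:**
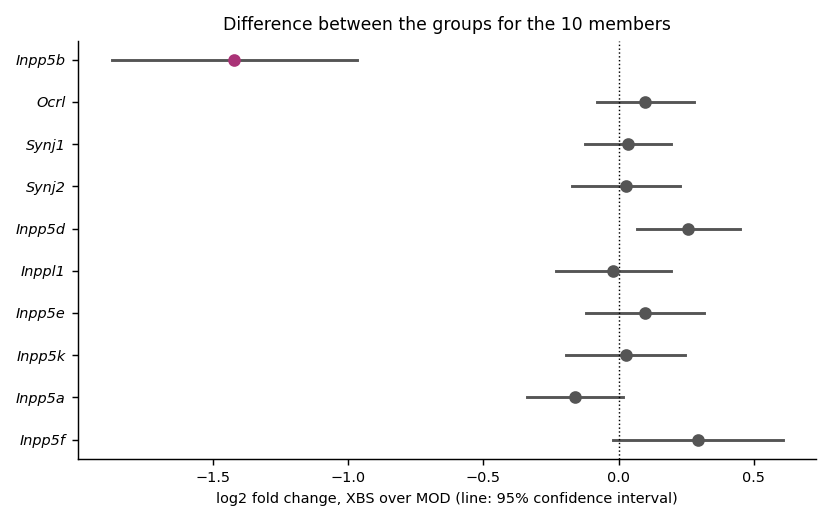
Log2 fold change of each member, XBS over MOD, with its 95% confidence interval from edgeR. Inpp5b stands at -1.42, and the other 9 members lie between -0.16 and 0.29.

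Genes beside Inpp5b were compared to see whether the locus moved with it. In the deposited table Inpp5b (ENSRNOG00000048506) lies on chromosome 5 from 142731767 to 142796305 on the plus strand, in a build that neither labels nor headers name. Of its neighbours, Sf3a3, a splicing factor subunit that ends 9426 bases before it, had 40.9 ± 2.16 CPM in MOD against 38.1 ± 1.66 CPM in XBS (SD, n = 5; edgeR adjusted p = 0.518). The next gene, LOC100909856, starts 1061 bases after Inpp5b on the same strand; its gene ID is that of Mtf1, the metal-responsive transcription factor, in RefSeq. It had 4.63 ± 1.10 and 4.03 ± 0.67 CPM (SD, n = 5; edgeR adjusted p = 0.689). Farther out, Fhl3, a LIM domain gene named after its values were seen, had 13.8 ± 2.02 CPM in MOD against 17.6 ± 1.87 CPM in XBS (SD, n = 5; edgeR adjusted p = 0.282), with every XBS library above every MOD library. No other gene of the table overlapped any member. RefSeq places 1 noncoding gene, LOC120102976, over part of Inpp5b, and neither labels nor headers say whether counting kept strand. It likewise places Pmpca over Inpp5e, Phox2a and LOC103691225 over Inppl1, Serac1 and 2 noncoding genes over Synj2, 1 noncoding gene over Inpp5a and 2 over Inpp5d. The part of these genes in the members' counts was not tested.

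**Figure D3:**
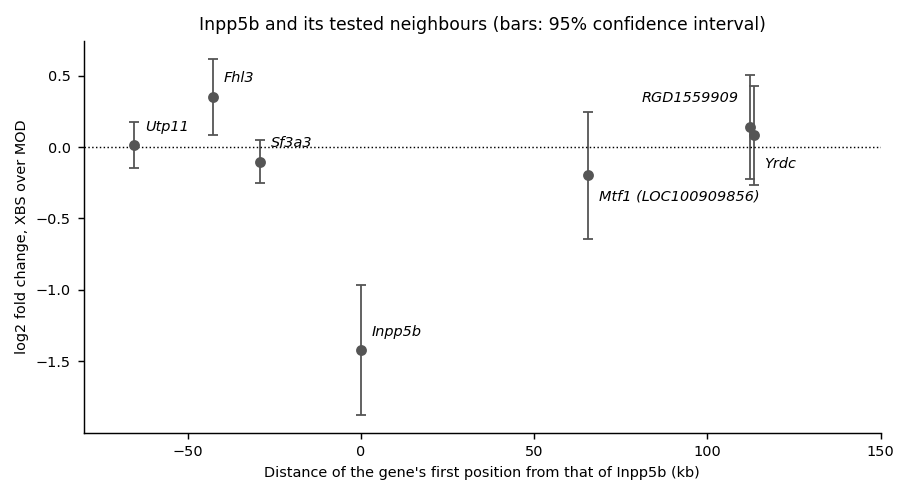
Log2 fold change, XBS over MOD, with 95% confidence intervals, of Inpp5b and its tested neighbours on chromosome 5, by distance in kb from the first position of Inpp5b. The neighbours lie between -0.20 and 0.35, and Inpp5b at -1.42.

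Synj1 and Synj2 encode the synaptojanins, which join a 5-phosphatase to a Sac phosphatase domain and help shed the clathrin coat from endocytic vesicles. Neither passed the test. Synj1 ran from 78.3 to 87.1 CPM in MOD and from 77.3 to 96.2 CPM in XBS, and was highest in XBS 2. Its XBS over MOD ratio was 1.03 (95% confidence interval 0.918 to 1.15; edgeR adjusted p = 0.855). Synj2 ran from 29.0 to 35.3 CPM in MOD and from 28.1 to 38.0 CPM in XBS, with a ratio of 1.02 (95% confidence interval 0.887 to 1.17; edgeR adjusted p = 0.915). The groups overlapped for both genes, and both fold changes turned sign when 1 library was left out, Synj1 without XBS 2 (-0.014) and Synj2 without MOD 1 (-0.0090) or XBS 1 (-0.027).

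Inpp5d and Inppl1 encode SHIP1 and SHIP2, which turn the lipid product of PI 3-kinase into a bisphosphate; SHIP1 is made mainly by blood cells and SHIP2 by most cells. Inpp5d stood at 69.5, 85.1, 73.7, 74.2 and 81.1 CPM in MOD 1 to 5 and at 87.2, 104, 95.4, 78.2 and 93.9 CPM in XBS 1 to 5. Of the XBS libraries 4 lay above the highest MOD library, and XBS 4 lay within the MOD range. The means were 76.7 ± 6.29 and 91.8 ± 9.70 CPM (SD, n = 5), a ratio of 1.20 (95% confidence interval 1.05 to 1.36), which did not pass over all genes (edgeR adjusted p = 0.264). Among the 9 members other than Inpp5b it was the 1 with an unadjusted p under 0.05 (0.0122 by edgeR), as were 13.2% of all tested genes and 7.4% in the higher direction. By DESeq2, where 2.58% of genes passed, 0 of these 9 did.

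Inpp5d followed the markers of leukocytes across libraries. All 8 pan-leukocyte markers were tested and had a positive fold change (median log2 0.32, against 0.26 for Inpp5d), though 0 rose and 0 fell by edgeR. Of the 8, 6 had an unadjusted p under 0.05, as had 13.2% of all tested genes and 7.4% in the higher direction. Their summed level ran from 1980.01 to 2230.4 CPM in MOD and from 2254 to 2790.5 CPM in XBS. Over the 10 libraries, Inpp5d and the pan-leukocyte score gave Pearson's r = 0.906 (permutation p = 0.00064) and Spearman's rho = 0.964 (permutation p = 6e-05), the only relation tested, so no adjustment applied. Without XBS 3 and XBS 2, the libraries farthest from the median score, r was 0.880 (permutation p = 0.00518). The permutations ran over all 10 libraries regardless of group, so their p-values include the difference between groups on both sides. With each group's mean removed, r was 0.796. Within MOD alone r was 0.972, and within XBS alone it was 0.697. Whether more leukocytes were present in XBS was not tested.

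**Figure D4:**
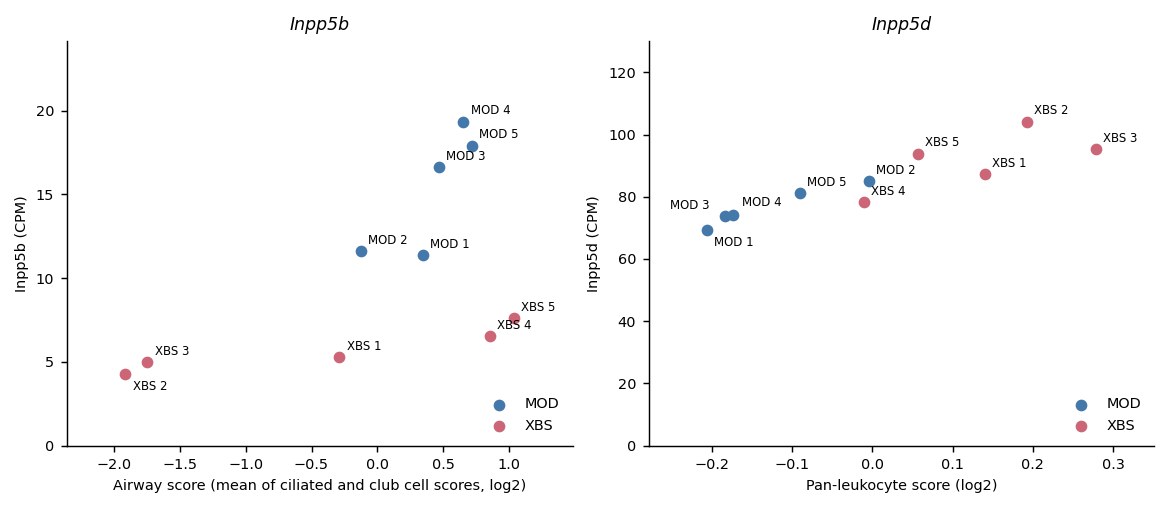
CPM of Inpp5b against the airway score (left) and of Inpp5d against the pan-leukocyte score (right), with 1 point per library and the score in log2 units. Inpp5b runs from 4.29 to 7.60 CPM in XBS and from 11.4 to 19.3 CPM in MOD, and Inpp5d is higher at higher scores (r = 0.906).

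Inppl1 had 83.7 ± 4.94 CPM in MOD against 82.6 ± 11.6 CPM in XBS (SD, n = 5), with a ratio of 0.987 (95% confidence interval 0.851 to 1.15; edgeR adjusted p = 0.949). XBS 2 (63.7 CPM) was its lowest library and XBS 4 (95.1 CPM) its highest, so that XBS spanned the whole MOD range. Its direction was not stable: without XBS 2 the log2 fold change was 0.061, and without MOD 5 it was 0.017.

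Inpp5e and Inpp5k act on lipids at particular membranes, Inpp5e at the primary cilium, where its loss causes Joubert syndrome, and Inpp5k at the endoplasmic reticulum, where it limits insulin signalling. Inpp5e stood at 25.7, 24.4, 24.2, 20.8 and 24.9 CPM in MOD 1 to 5 and at 26.2, 29.5, 21.3, 26.5 and 25.0 CPM in XBS 1 to 5. The groups overlapped (ratio 1.07, 95% confidence interval 0.921 to 1.24; edgeR adjusted p = 0.680). XBS 2 had the most Inpp5e and XBS 3 the least of XBS, while their summed ciliated cell markers were alike (386 and 391 CPM). Those are markers of ciliated cells of the airway, not of the primary cilium, and their relation to Inpp5e was not tested. Inpp5k ran from 31.4 to 44.1 CPM in MOD and from 34.2 to 41.0 CPM in XBS, and was within the MOD range in every XBS library (ratio 1.02, 95% confidence interval 0.874 to 1.19; edgeR adjusted p = 0.926). Its log2 fold change was -0.029 without MOD 1 and -0.0042 without XBS 3.

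Inpp5a encodes the enzyme that inactivates soluble inositol trisphosphate, the messenger that releases calcium. It stood at 178, 153, 164, 166 and 141 CPM in MOD 1 to 5 and at 137, 164, 142, 142 and 133 CPM in XBS 1 to 5. Only XBS 1 and XBS 5 lay below the lowest MOD library. The ratio was 0.895 (95% confidence interval 0.791 to 1.01; edgeR adjusted p = 0.422).

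Inpp5f carries the family's name but encodes a Sac domain phosphatase that acts on position 4 of the ring on endosomes. It stood at 81.5, 60.6, 62.6, 61.0 and 58.1 CPM in MOD 1 to 5 and at 89.9, 104, 68.2, 66.5 and 68.6 CPM in XBS 1 to 5. MOD 1 in its group and XBS 1 and XBS 2 in theirs were high, and the groups overlapped. The ratio of 1.23 did not pass (95% confidence interval 0.986 to 1.52; edgeR adjusted p = 0.408). Inpp5j, a 5-phosphatase outside the member list, was scarce, at 5.23 ± 1.01 CPM in MOD against 5.03 ± 1.07 CPM in XBS (SD, n = 5; edgeR adjusted p = 0.920).

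Levels per gene length placed Inpp5a first and Inpp5b last. Inpp5a had 56.0 ± 5.58 FPKM in MOD and 51.0 ± 4.36 FPKM in XBS (SD, n = 5), and exceeded Inppl1 in 10 of 10 libraries. Inppl1 and Inpp5k, at 24.6 and 24.0 FPKM over all libraries, did not differ in order beyond their spread, since Inppl1 was above Inpp5k in 6 of 10. Inpp5k exceeded Inpp5d in 10 of 10 libraries. Inpp5d (17.1 FPKM) was above Inpp5f (15.1 FPKM) in 7 of 10, and Inpp5f above Synj1 (12.1 FPKM) in 9 of 10. After a step present in 10 of 10 libraries came Inpp5e (7.44 FPKM), above Ocrl (6.52 FPKM) in 8 of 10, while Ocrl and Synj2 (6.39 FPKM) changed order in 5 of 10. Inpp5b followed below Synj2 in 10 of 10 libraries, at 3.99 ± 0.93 FPKM in MOD and 1.52 ± 0.37 FPKM in XBS (SD, n = 5).

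The summed level of the 10 members hardly differed, at 168 ± 3.13 FPKM in MOD and 170.5 ± 7.96 FPKM in XBS (SD, n = 5). Inpp5b made up 2.38% ± 0.57 (SD, n = 5) of this sum in MOD and 0.897% ± 0.24 (SD, n = 5) in XBS, and Inpp5a 33.3% ± 2.79 and 29.9% ± 1.23. Inpp5b was also the most variable member within groups, with a coefficient of variation of 23.8% in MOD and 23.0% in XBS, against 4.40% to 21.0% for the other 9. It also had the fewest counts of the members, 58 in its lowest library. Inpp5j, with 52 to 91 counts, had 19.4% in MOD and 21.3% in XBS. The part of low counts in this spread was not tested. The median log2 fold change of all 10 members was 0.032, beside 0.010 over all genes tested. Of the 10 members 7 were positive, as were 7425 of 14320 genes over all tested.

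The other genes of phosphoinositide metabolism were read from 10 lists, of which 108 of 110 genes were matched and 106 tested. By edgeR 0 rose, 0 fell and 106 did not pass; 12 had an unadjusted p under 0.05 (6 higher, 6 lower; 13.2% of all tested genes did), and the median log2 fold change was -0.016. DESeq2 called 2 of them and limma voom 0. Groups did not overlap for 3 of the 106, namely Pik3cd, Pik3r1 and Pheta2, against 2.74% of all tested genes. Both counts are near these background shares, so the genes below are given as values.

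The smallest adjusted p of these lists belonged to the PI 3-kinase genes Pik3cd and Pik3r1. Of 14 tested PI 3-kinase genes 0 rose, 0 fell and 14 did not pass, and 9 had a positive fold change. Pik3cd, the leukocyte catalytic subunit p110 delta, stood at 90.6, 79.7, 91.6, 68.8 and 87.4 CPM in MOD 1 to 5 and at 141, 136, 118, 98.9 and 110 CPM in XBS 1 to 5. Every XBS library was above every MOD library (ratio 1.45, edgeR adjusted p = 0.106; DESeq2 adjusted p = 0.00224). Pik3r1, the p85 alpha regulatory subunit, stood at 144, 196, 174, 217 and 167 CPM in MOD 1 to 5 and at 129, 128, 140, 136 and 132 CPM in XBS 1 to 5. It was lower in every XBS library (1.35-fold, edgeR adjusted p = 0.129; DESeq2 adjusted p = 0.00777). Of 10 tested PI 4-kinases and PIP kinases none passed, with Pip4k2b 1.17-fold lower (adjusted p = 0.419 by edgeR) and Pi4k2a 1.12-fold lower (0.458). In that list 0 genes had an unadjusted p under 0.05 by edgeR.

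Phosphatases of the other ring positions showed small differences. Of 9 tested 3-phosphatases none passed by edgeR, and 0 had an unadjusted p under 0.05. Mtm1 (1.14-fold lower, adjusted p = 0.405 by edgeR) and Mtmr3 (1.09-fold lower, 0.451) had the smallest p. Of 6 tested 4-phosphatases and Sac phosphatases none passed by edgeR, and 0 had an unadjusted p under 0.05. Inpp4a was 1.15-fold lower and Pip4p2 1.06-fold higher (edgeR adjusted p = 0.522 and 0.580).

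Genes downstream of these lipids did not pass either. Of 15 tested enzymes of soluble inositol phosphates 11 had a negative fold change, as had 6895 of 14320 genes over all tested. Itpkb, a kinase of inositol trisphosphate, had 180 ± 38.1 CPM in MOD against 129 ± 29.4 CPM in XBS (SD, n = 5; edgeR adjusted p = 0.309), and Ipmk was 1.12-fold lower (0.327). Of 15 tested phospholipase C and inositol trisphosphate receptor genes, Plcb2, the isoform of blood cells, was at 28.2 ± 5.16 and 41.3 ± 9.60 CPM (SD, n = 5; edgeR adjusted p = 0.228), and Plcd3 was 1.44-fold higher (0.271). In the phospholipase C and receptor list 9 of 15 were positive, beside 7425 of 14320 genes over all tested. In the Akt branch 9 of 13 tested genes were negative, with a median log2 fold change of -0.18. Foxo3, a transcription factor held in check by Akt, had 81.8 ± 20.4 CPM in MOD against 50.8 ± 13.5 CPM in XBS (SD, n = 5; edgeR adjusted p = 0.236), and Plekha2, a binder of the SHIP product, was 1.21-fold lower (0.287).

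Binding partners of the members did not pass. Among 16 tested partners of Ocrl, Inpp5b and the synaptojanins, Sh3gl2, the brain isoform of endophilin, had 11.9 ± 1.59 CPM in MOD against 7.91 ± 1.92 CPM in XBS (SD, n = 5; edgeR adjusted p = 0.220). Pheta2, which binds Ocrl and Inpp5b on endosomes, stood at 5.52, 4.54, 4.54, 4.85 and 4.75 CPM in MOD 1 to 5. In XBS 1 to 5 it stood at 7.40, 7.92, 5.52, 7.02 and 5.81 CPM, above MOD in every library, though MOD 1 and XBS 3 differed by less than these digits show (edgeR adjusted p = 0.237). Of 7 tested SHIP partners, the leukocyte adaptor Dok2 was 1.42-fold higher and Cd2ap 1.30-fold lower (edgeR adjusted p = 0.249 and 0.452).

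**Figure D5:**
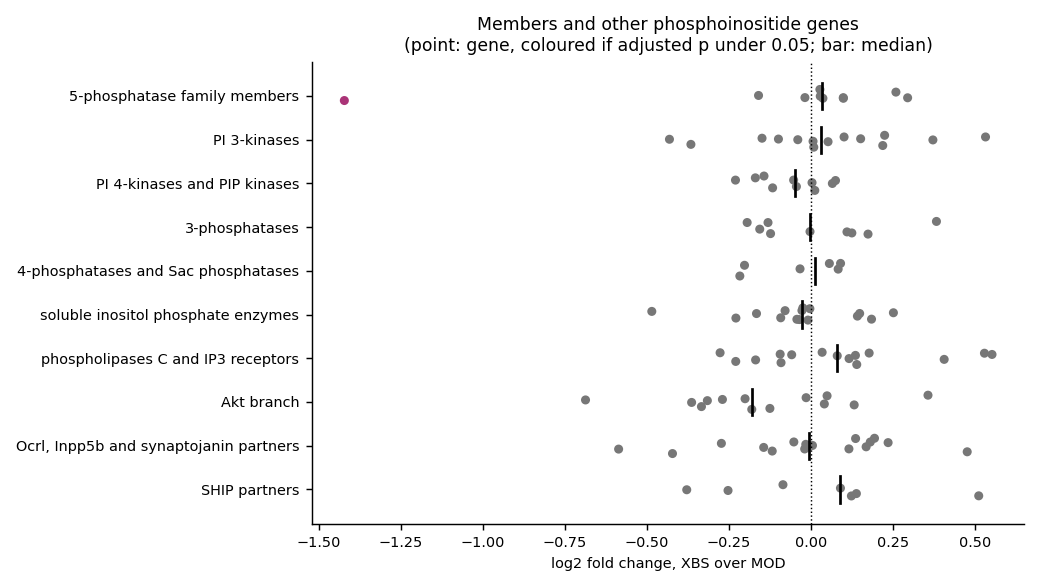
Log2 fold change, XBS over MOD, of the 10 members and of the tested genes of 9 phosphoinositide lists (a list of Inpp5j alone is not drawn), with 1 point per gene, bars for medians and colour for an adjusted p under 0.05. Inpp5b is the coloured point, at -1.42.

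Likeness to Inpp5b was measured as Pearson's r of log2 CPM over the 10 libraries, among 13322 tested genes with a proper symbol, as a description that holds the group difference within it. Of these, 11 had r above 0.9 and 49 had r below -0.9. The 6 nearest were the cell cycle inhibitor Cdkn1a (r = 0.961), the actin oxidase Mical2 (0.953), the kinase Cdk6 (0.932), the GTPase-activating gene Arhgap35 (0.927), Irf2bp2 (0.924) and the dynein adaptor Bicd1 (0.924). For each of them the highest XBS library lay below the lowest MOD library, and none passed by edgeR (adjusted p = 0.0858 to 0.214). Over all 14320 tested genes, 162 had groups apart in this direction and 231 in the other. Choice by r favours such genes, because Inpp5b itself separates the groups. Cdkn1a had 79.8 ± 14.9 CPM in MOD against 41.2 ± 11.0 CPM in XBS (SD, n = 5). The 3 most opposite were the thymidine kinase Tk1 (r = -0.971), the centrosomal gene Cep72 (-0.969) and Rasal3 (-0.957), each higher in every XBS library with edgeR adjusted p = 0.0858. Cep72 had 1.82 ± 0.76 CPM in MOD against 4.85 ± 0.87 CPM in XBS (SD, n = 5), and its library order was the reverse of that of Inpp5b throughout (rho = -1).

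With group means removed, other genes were nearest to Inpp5b. Among them were Nacc1 (r = 0.935), Cops3 (0.933) and Tbc1d4 (0.925), each with overlapping groups. Of the other members, Inpp5f had r = -0.714 with Inpp5b over 10 libraries and -0.662 with group means removed. Inpp5d had -0.743 and -0.297, and Ocrl -0.283 and 0.432. The values over 10 libraries hold the group difference that chose the family.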

How the data were processed

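Messenger RNA from rat lung was sequenced in 10 libraries (MOD 1 to 5 and XBS 1 to 5). The authors deposited 1 table with read counts and FPKM per gene, per the file headers; the FPKM values equal count over gene length and library total. No source used here gives the aligner, counter or annotation, and the submitters' processing notes name human and mouse builds although the gene identifiers are those of rat. The members and gene lists were chosen with earlier results of these data known. Counts were scaled by TMM, filtered with filterByExpr (14320 of 22250 genes, 99.9% of counts) and tested with edgeR 4.0.16 (robust quasi-likelihood, group as the only term) in R 4.3.3, with Benjamini-Hochberg adjustment over all tested genes and a threshold of 0.05. CPM use TMM-scaled library sizes, and log2 CPM a prior count of 2. Correlation p-values are two-sided, from 100000 permutations. DESeq2 1.42.0, limma 3.58.1 voom, 2 other scalings, 2 other filters, a replicate block and leaving out each library were tried, and after seeing the data a fit without both XBS 2 and XBS 3 and a fit with the airway score as a term were added. The procedure was tested on simulated data. Named genes were all members, Inpp5j, the 2 genes of smallest p of each pathway list with at least 5 tested genes, any past the threshold, the genes most like Inpp5b, and its neighbours. No pair of libraries of a group agreed within sampling noise. Pip4k2a, Mtmr8, Ccr2, Foxj1 and Pecam1 were among the symbols not matched. Some genes that the naming rule takes are not reported here.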

Additional observations from a re-analysis of the deposited data

Results flagged for a closer look

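Inpp5f stood at 81.5 CPM in MOD 1, apart from the other 4 MOD libraries (58.1 to 62.6 CPM). It was the 1 library set apart from its group by Dixon's criterion (critical value 0.71 for 5 libraries) in 22 groups tested, and chance alone marks about 1 in 20 groups.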

How the results depend on the processing

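The fall of Inpp5b chose the family, so the runs below describe it and are no test of it. It kept its direction under every alternative run, with a log2 fold change of -1.54 to -1.33 when 1 library was left out. It passed edgeR's threshold under the other scalings and filters (adjusted p = 0.0305 to 0.0415), DESeq2 (2.46e-07) and limma voom (0.0362). By edgeR it also passed with the airway covariate (adjusted p = 0.0471). With 1 library left out, 0 to 1 members were called, and the call was kept in 2 of 10 runs. Without XBS 2 and XBS 3 together 0 members and 3 genes in all were called. Genes called numbered 11 by edgeR, 348 by DESeq2, 66 by limma voom, 7 with the airway covariate, and 4 to 15 with 1 library left out. Of the pathway genes DESeq2 called 2. The labels do not say whether equal replicate numbers pair the libraries. Same-numbered deviations correlated at -0.12 to 0.33, and 2 of 10 libraries correlated best with their own number. With so few libraries these values cannot settle whether the numbers pair them. With the replicate block 0 members and 1 gene in all were called, and Inpp5b had log2 fold change -1.42 (adjusted p = 0.0842 by edgeR). The 4 members near 0 changed sign. By limma voom Inppl1 was 0.025 and Synj2 -0.0073; without XBS 2 and XBS 3 Inpp5k was -0.025, Inppl1 0.060 and Synj1 -0.021; with the airway covariate Inppl1 was 0.051 and Synj1 -0.019. With 1 library left out, Inpp5k ran from -0.029 to 0.094, Inppl1 from -0.076 to 0.061, Synj1 from -0.014 to 0.067 and Synj2 from -0.027 to 0.078; the cause was not tested. Inpp5d against the pan-leukocyte score ran from r = 0.883 to 0.922. Of the 10 members Inpp5b had the fewest counts, 58 in its lowest library.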
